A study of Mus musculus with 9 samples.

Results

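The Gadd45 family comprises 3 genes in the mouse, Gadd45a, Gadd45b and Gadd45g, and all 3 are listed in both deposited tables, among 23988 symbols that the tables share. Rows were picked by symbol, though the members were chosen with earlier results of these data known. The samples were the dentate gyrus of C57BL/6 mice aged 8 weeks, with 1 library of total RNA per mouse and 3 mice per group, named E0, E1 and E4. As background to the study, E0 mice were not stimulated, and E1 and E4 mice were taken 1 h and 4 h after electroconvulsive stimulation, which makes granule neurons fire together. The labels themselves give no treatment and no unit for the number after E, and no group carries an engineered allele. Values come from 2 tables that the authors deposited, 1 for each stimulated group against E0. Each lists, per gene, the mean of counts divided by size factors over the 6 libraries (mean count here), a log2 fold change, the standard error (SE) of that change, and an adjusted p.

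GADD45 proteins are small acidic nuclear proteins without enzymatic activity of their own, first described through growth arrest and DNA damage. They bind the kinase MAP3K4 and so switch on the JNK and p38 cascades, and they bind PCNA, the CDK inhibitor p21 and the CDK1 and cyclin B1 complex. They have also been placed with enzymes of DNA repair that remove methylated cytosines, and in dentate granule neurons Gadd45b is known as an activity-induced gene linked to demethylation at Bdnf and Fgf1. Gadd45a is the classic p53 target of the family, while Gadd45b (Myd118) and Gadd45g (CR6) are known mainly as genes of differentiation and cytokine signalling.

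The bases just before the gene starts are shown as a description, and a link between them and the responses of the genes was not tested. They are the RefSeq windows of build GRCm38.p6, a newer build than the authors' mm9, and they end where the GENCODE M21 or the RefSeq start comes first. Capitals mark exact matches, on either strand, to 3 short motifs. One is the TATA box, searched as TATAAA. Another is the E-box, searched as CACGTG. The last is the CCAAT box, and each line reads 5′ to 3′ toward the gene. Matches to the other motifs counted below are not in capitals.
Gadd45a, chr6:67037458-67037657, minus strand: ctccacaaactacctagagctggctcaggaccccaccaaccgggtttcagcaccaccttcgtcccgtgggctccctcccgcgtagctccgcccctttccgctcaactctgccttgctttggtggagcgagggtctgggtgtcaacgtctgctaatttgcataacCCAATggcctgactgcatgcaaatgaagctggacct
Gadd45b, chr10:80929841-80930072, plus strand: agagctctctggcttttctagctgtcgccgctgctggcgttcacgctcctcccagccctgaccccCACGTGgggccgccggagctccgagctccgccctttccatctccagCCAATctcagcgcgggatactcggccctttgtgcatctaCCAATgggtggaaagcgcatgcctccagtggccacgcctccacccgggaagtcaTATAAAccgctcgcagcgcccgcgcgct
Gadd45g, chr13:51846425-51846674, plus strand: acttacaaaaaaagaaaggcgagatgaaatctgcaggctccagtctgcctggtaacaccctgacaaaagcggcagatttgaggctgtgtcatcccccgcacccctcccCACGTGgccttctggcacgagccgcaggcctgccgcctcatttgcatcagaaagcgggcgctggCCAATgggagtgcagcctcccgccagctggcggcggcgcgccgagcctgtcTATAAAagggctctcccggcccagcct

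Within the 250 bases before the RefSeq start, Gadd45b and Gadd45g each held a TATAAA and a CACGTG, and Gadd45a held neither. The GENCODE start of Gadd45a lies 50 bases upstream of its RefSeq start, so part of its window lies within the gene by that annotation. Of 32851 windows of this length in the table, 12.4% held TATAAA, 6.02% held CACGTG and 0.517% held both. Counted from the RefSeq start at 0, the TATAAA began at -46 for Gadd45b, whose GENCODE start lies 18 bases further upstream, and at -27 for Gadd45g. The CACGTG began at -185 and -142. CCAAT stood 1 time before Gadd45a, 2 times before Gadd45b and 1 time before Gadd45g, against at least 1 match in 33.8% of windows. The octamer ATGCAAAT was matched 2 times before Gadd45a and 1 time before Gadd45g, against 1.60% of windows with a match, and GGGCGG 1 time each before Gadd45a and Gadd45b, against 32.7%. The cyclic AMP response element TGACGTCA was in none of the 3 windows and in 1.55% of all. Its core TGACG, which lies within the full element, was in none of the 3 and in 17.8% of all, and the AP-1 site TGANTCA in none of the 3 and in 6.75% of all. No matches in the 3 windows overlapped. Guanine and cytosine made up 59.2%, 65.2% and 62.0% of the bases for Gadd45a, Gadd45b and Gadd45g, with 11, 22 and 16 CpG steps, where the medians of all windows were 52.4% and 6. A match of letters is a description of the sequence and not a measured binding site.

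**Figure D1:**
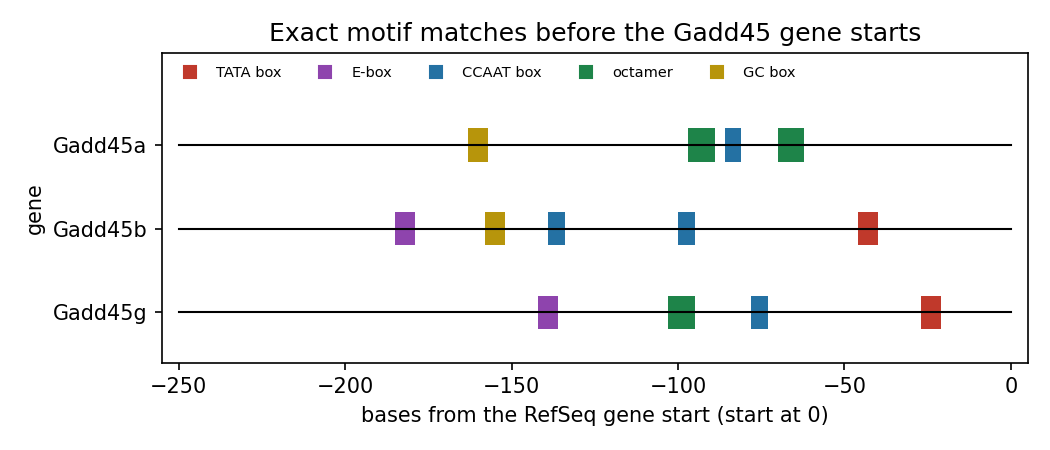
Exact motif matches in the 250 bases before each RefSeq gene start, as distance in bases from the start (x axis), 1 line per gene, with coloured blocks for the 5 motifs that were found. Gadd45b and Gadd45g each have a TATA box and an E-box, and Gadd45a has neither.

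Values per mouse were not used here, so the spread between mice enters only through the authors' SE, and no value could be recomputed without a library. Depth could be approximated from the mean counts that genes with 1 read share, at 6140000 to 10960000 reads in genes per E0 library and 10020000 to 13550000 per E4 library. The E1 libraries were shallower, at 1940000 to 4760000 reads, and also stood apart in 184 of 647 genes that rose by a log2 fold change of at least 2 in E1 but had a mean count under 1 in the E4 table. None of the Gadd45 genes is among these 184. Prox1, Calb1 and C1ql2, markers of granule neurons, had a mean count of 990.5, 1620 and 1096 across E0 and E1, as the authors' deposited table lists it, so markers of the labelled tissue were well read.

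Gadd45b and Gadd45g were both raised in E1, and Gadd45a was not called. In the authors' deposited table Gadd45b had a mean count of 416.2 and a log2 fold change of 4.59 ± 0.21 (SE), a 24.1-fold rise with a 95% interval of 18.0 to 32.3 (adjusted p = 1.1e-98, DESeq2, per the submitters' processing notes). This placed it at rank 125 of 3224 rises by size in that table. Gadd45g had a mean count of 216.4 and a log2 fold change of 1.97 ± 0.17 in the authors' deposited table, a 3.91-fold rise with an interval of 3.09 to 4.94 (adjusted p = 2.0e-28, DESeq2), at rank 664. Both were far outside their errors. For Gadd45a the authors' deposited table gives a mean count of only 6.44 and a log2 fold change of -0.32 ± 0.54 (adjusted p = 0.701, DESeq2). Its interval, 0.387-fold to 1.67-fold, leaves room for a change in either direction. The share of all tested genes called higher in this comparison was 20.6%, that called lower 15.0%, and 35.5% were called in either direction, so a call alone does not set a gene apart here. The size of the change differed between the members, with -2.63 ± 0.28 for Gadd45g minus Gadd45b on the log2 scale and 4.91 ± 0.58 for Gadd45b minus Gadd45a (difference ± combined SE, errors taken as independent).

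In E4 the same genes were raised, each by less. Gadd45b stood at 3.57 ± 0.18 (log2 fold change ± SE) in the authors' deposited table, an 11.9-fold rise with an interval of 9.30 to 15.2 (adjusted p = 3.7e-85, DESeq2). It was the rise of rank 9 among 2989 in that table, where 20.7% of tested genes were called higher, 18.3% lower and 39.0% in all. Gadd45g stood at 0.93 ± 0.15 in the authors' deposited table, 1.90-fold with an interval of 1.56 to 2.33 (adjusted p = 3.9e-09, DESeq2), at rank 661. Gadd45a, with a mean count of 16.29, stood at 0.16 ± 0.39 in the authors' deposited table (adjusted p = 0.790, DESeq2), with an interval of 0.662-fold to 1.88-fold. Both comparisons share the E0 libraries, so their values for a gene are not independent of each other. The distance between the induced members was again large, with -2.64 ± 0.23 for Gadd45g minus Gadd45b on the log2 scale. Gadd45g minus Gadd45a was 2.28 ± 0.57 in E1 but 0.77 ± 0.41 in E4. The 95% interval of the latter, -0.04 to 1.58, includes 0, so the changes of Gadd45g and Gadd45a in E4 were not told apart.

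**Figure D2:**
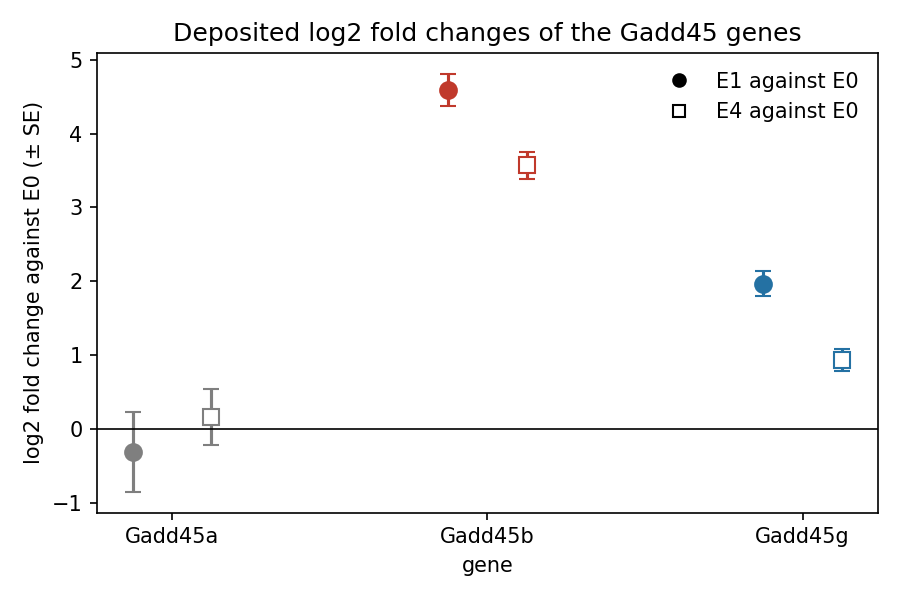
Deposited log2 fold changes against E0 (y axis) of the 3 Gadd45 genes (x axis), with filled circles for E1, open squares for E4 and bars of 1 SE. Gadd45b lies at 4.59 and 3.57, Gadd45g at 1.97 and 0.93, and both values of Gadd45a lie within 1 SE of 0.

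From E1 to E4 the members that had risen fell back by nearly the same log2 amount. Subtracting the deposited log2 fold change of E1 from that of E4 gave -1.02 ± 0.28 for Gadd45b (a test over 12766 genes, adjusted p = 0.00128) and -1.04 ± 0.23 for Gadd45g (adjusted p = 3.7e-05), so both were about 2.03-fold and 2.05-fold lower in E4 than in E1. Of the genes tested 19.0% were called lower in that comparison, 17.7% higher and 36.7% in all. The drops of the 2 genes differed by -0.01, with a 95% interval of -0.72 to 0.69, so a moderate difference in either direction cannot be told from none. Gadd45a was below the mean count of 10 set for this test, and without that minimum its difference was 0.47 ± 0.66 (adjusted p = 0.714 over 17652 genes). The E0, E4 and E1 levels of Gadd45b and of Gadd45g thus each differed from their neighbours in that order, and those of Gadd45a did not pass a test in any pair.

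The levels themselves can be approximated, because a mean over 2 groups of 3 libraries and a log2 ratio imply both group means. For Gadd45b the implied mean normalised count was 33.1 in E0 and 799.3 in E1 on the scale of the E1 table, and 61.5 in E0 and 729.9 in E4 on that of the E4 table. The tables differ in scale by a median factor of 1.89 over 9818 genes, and Gadd45b gave 1.86 between its own E0 values. For Gadd45g the implied normalised counts were 88.2 in E0 and 344.6 in E1, then 163.6 in E0 and 311.3 in E4, with 1.85 between its E0 values. Gadd45a had 7.14 and 5.74 in the first table and 15.4 and 17.2 in the second, with 2.15 between its E0 values, further from the median than the others. These are approximations, since the fold changes appear shrunken toward 0, which touches genes with few reads most.

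Per kb of exon, and on the scale of the E1 table, Gadd45g was the most abundant member before stimulation and Gadd45b after it. The implied normalised count per kb in E0 was 75.2 for Gadd45g, 20.8 for Gadd45b and 4.05 for Gadd45a. In E1 it was 503.0 for Gadd45b, 293.7 for Gadd45g and 3.25 for Gadd45a, and in E4 243.0, 140.4 and 5.15. Ranked were the 16783 genes with an exon length and with reads in both comparisons, so genes without reads were left out. Among these Gadd45b went from the middle to near the top, above 54.4% in E0, 98.0% in E1 and 94.0% in E4. Gadd45g started higher, above 81.0%, and stood above 95.6% in E1 and 89.1% in E4. Gadd45a was a little-read gene throughout, above 30.4%, 25.6% and 34.2% of the ranked genes in E0, E1 and E4. Whether the levels of different members within a group differ was not tested, since no SE of a level is given.

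**Figure D3:**
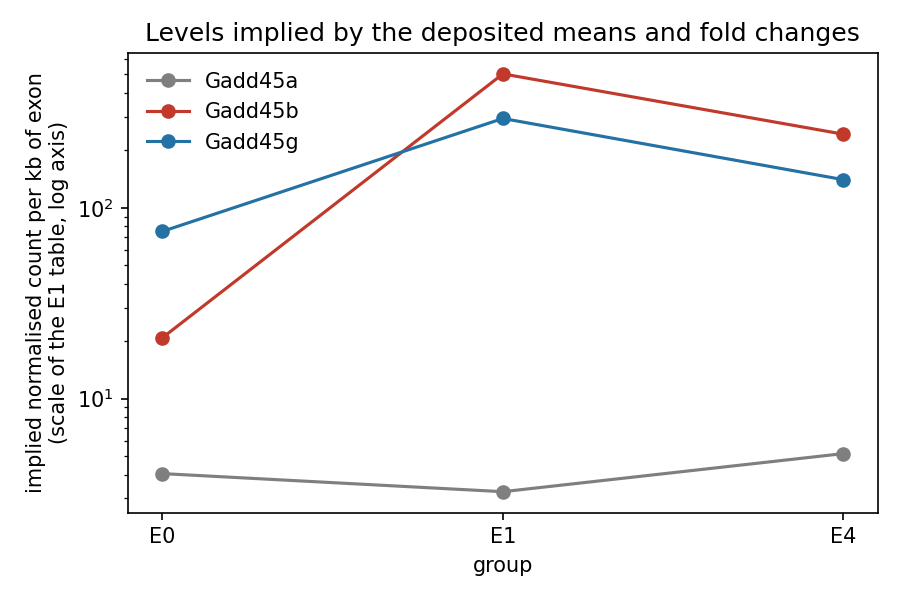
Implied normalised count per kb of exon (y axis, log scale, scale of the E1 table) of each Gadd45 gene in the groups E0, E1 and E4 (x axis), with lines joining the groups of a gene and no error bars because the tables give no value per mouse. Gadd45b rises from 20.8 to 503.0 and stands at 243.0 in E4, crossing above Gadd45g, while Gadd45a stays between 3.25 and 5.15.

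The reads behind these values were many for the induced members and few for Gadd45a. Summed over 3 libraries, Gadd45b had about 169 reads in E0, 1574 in E1 and 2548 in E4, and Gadd45g about 451, 678 and 1087. Gadd45a rested on about 36 reads in E0 and 11 in E1, so only a large change could have been detected. Its annotated exons also share up to 337 bases with those of E230016M11Rik, a noncoding gene on the opposite strand which had a mean count of 4.20 in the E4 table that the authors deposited (adjusted p not given), and how strand was used in counting is not given in the sources used here. No annotated gene overlaps Gadd45b or Gadd45g.

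The errors of Gadd45b were wide for its mean count. In the E1 table the authors deposited, its SE of 0.21 compares with a median of 0.14 over 2393 genes within 1.5 times its mean count, and 99.0% of these had a smaller SE. In the authors' deposited table for E4 its SE of 0.18 compares with a median of 0.13 over 2751 such genes, 98.9% of which had a smaller one. The SE of Gadd45g stood near the middle, with 51.8% and 41.5% of comparable genes below it. Wide errors were not particular to Gadd45b among the strongly raised genes nearest to it in course, described next. Rara, with mean counts of 400.0 and 377.7, had SEs of 0.24 in E1 and 0.19 in E4, both above those of Gadd45b. Cenpa, with a mean count of 317.0 in E1, had an SE of 0.20 there, just below that of Gadd45b. Gadd45b also has far fewer reads in E0 than its mean count shows, and the part of this in its SE was not tested.

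Few genes followed the course of Gadd45b. Over 9512 genes that had an adjusted p and a mean count of 50 or more in both tables, likeness was taken as the distance between the pairs of log2 fold changes, which describes 9 libraries through 2 comparisons that share E0. Numbered Gm and LOC symbols and Rik symbols were left out beforehand. No gene of the 9512 lay within 1 SE of Gadd45b in both comparisons. The SE was that of the member alone, so errors of the other genes were not counted. Whether the nearest genes differ from Gadd45b was not tested. The nearest were Inhba, a subunit of activin, at a distance of 0.337, the centromeric histone gene Cenpa at 0.471, the pentraxin gene Nptx2 at 0.519, Rara, a receptor of retinoic acid, at 0.551 and the kinase gene Pim1 at 0.838. Inhba stood at 4.63 ± 0.26 in E1 and 3.23 ± 0.21 in E4, and Rara at 4.96 ± 0.24 and 3.98 ± 0.19, in the authors' deposited tables. Of these 5 genes 4 had a smaller log2 fold change than Gadd45b in E4, the exception being Rara.

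Gadd45g had closer neighbours, with 3 genes within 1 SE in both comparisons. Nearest were Jund, a partner in the AP-1 complex, at a distance of 0.0336 and Ifrd1, a transcriptional coregulator gene, at 0.0404, then the lysyl oxidase-like gene Loxl2 at 0.0898, the zinc finger gene Plagl1 at 0.176 and Gch1, an enzyme of tetrahydrobiopterin synthesis, at 0.229. Jund stood at 1.97 ± 0.16 and 0.90 ± 0.13, and Ifrd1 at 1.99 ± 0.14 and 0.96 ± 0.13, in the authors' deposited tables. For Gadd45a 3654 of the 9512 genes lay within 1 SE in both, so its nearest genes (Cecr5, Setdb1, Rcbtb2, Frg1 and Fam96a) name no distinct pattern.

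**Figure D4:**
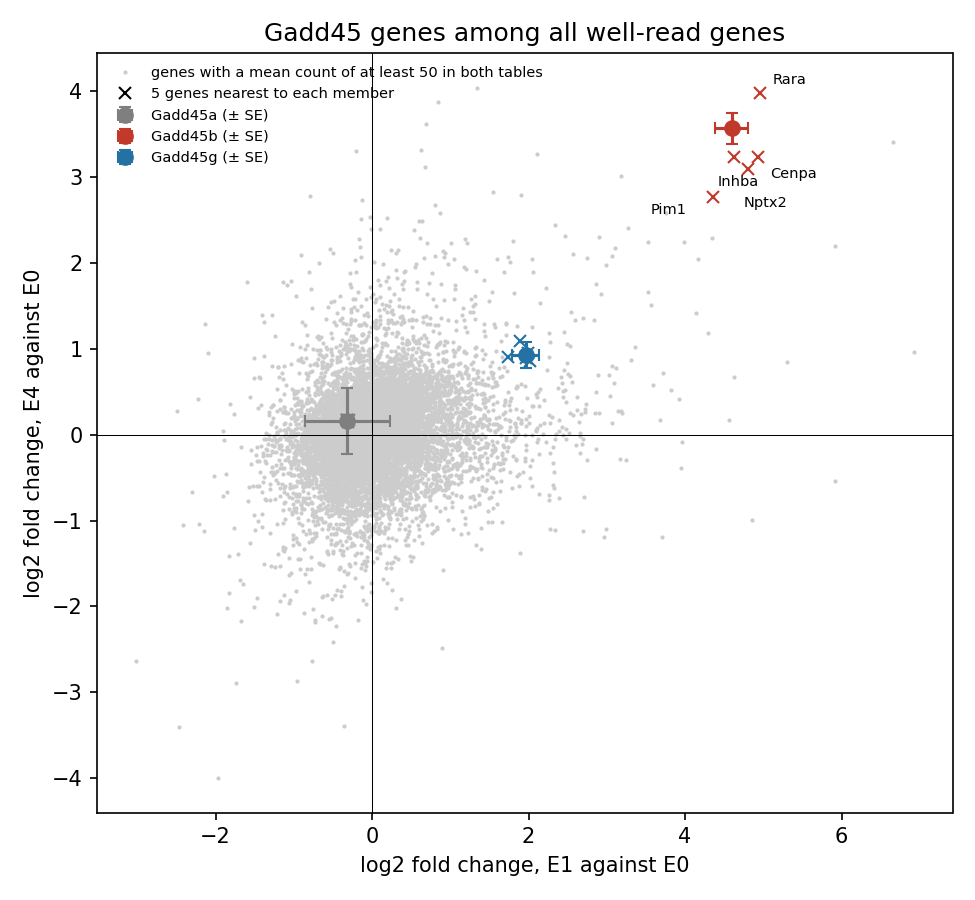
Log2 fold change in E1 (x axis) and in E4 (y axis), both against E0, with 1 grey point per gene whose mean count was 50 or more in both tables, with the Gadd45 genes as coloured circles with bars of 1 SE and their 5 nearest genes as crosses. Gadd45b lies at 4.59 and 3.57 in a thinly filled corner, Gadd45g at 1.97 and 0.93, and Gadd45a within the dense centre.

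Genes that act with GADD45 proteins were examined from lists chosen with earlier results of these data known. Shares of this list and of those below are therefore set beside those of all genes as a description only. Of 6 cell cycle partners only Cdkn1a, which encodes the CDK inhibitor p21, was called, and it was raised in both comparisons, where 35.5% and 39.0% of all genes tested were called. In the authors' deposited table it stood at 2.59 ± 0.24 in E1 (adjusted p = 1.0e-25, DESeq2) and 1.33 ± 0.21 in E4 (adjusted p = 5.3e-09, DESeq2). Pcna, the DNA clamp, stood at -0.05 in E1 and 0.02 in E4 in the authors' deposited tables and was not called, nor was Gadd45gip1, which encodes a GADD45-binding protein, at -0.58 ± 0.27 (adjusted p = 0.0773, DESeq2) and 0.33 ± 0.16 (adjusted p = 0.0889, DESeq2). Cdk1 and Ccnb1 had mean counts under 6 in both of the authors' deposited tables. The list median was -0.14 in E1 and 0.27 in E4, against 0.02 and -0.01 over all genes tested.

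In the kinase cascade 5 of 13 tested members (38.5%) were higher and 2 (15.4%) lower in E1, with a median of 0.25, where 20.6% of all genes tested were higher and 15.0% lower. In E4 6 (46.2%) were higher and 2 (15.4%) lower, with a median of 0.36, against 20.7% and 18.3% of all genes. A listed member, Mapk13, had no adjusted p in either table. Map3k4, the kinase that GADD45 proteins bind, was lowered in both comparisons in the authors' deposited tables, at -0.63 ± 0.13 (adjusted p = 8.5e-06, DESeq2) and -0.44 ± 0.10 (adjusted p = 2.8e-05, DESeq2). Its downstream kinase genes differed among themselves. The JNK gene Mapk10 was raised at 0.77 ± 0.10 in E1 and 0.42 ± 0.08 in E4, the p38 gene Mapk11 at 1.70 ± 0.27 in E1 and the JNK kinase gene Map2k4 at 0.47 ± 0.11 in E1, in the authors' deposited tables. In E4 the p38 target kinase gene Mapkapk2 was raised at 1.15 ± 0.13, and the JNK gene Mapk9 was lower, with -0.42 ± 0.09, in the authors' deposited table.

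Enzymes of DNA demethylation, methylation and repair moved in different directions. In E1 2 of 25 tested were higher and 4 lower (median -0.14), against 35.5% of all genes called in either direction. In E4 6 of 24 were higher and 3 lower (median 0.11), close to the 39.0% called among all genes. Tdg and Neil3 were too little read for an adjusted p in either table, as was Apobec2 in E4. In E1 the thymine glycosylase gene Mbd4 was raised at 1.54 ± 0.22 and Tet2, a methylcytosine dioxygenase gene, at 1.18 ± 0.18, in the authors' deposited table. Lowered there were the abasic site nuclease gene Apex1 at -1.62 ± 0.35 and the damage sensor gene Xpc at -1.22 ± 0.26, in the authors' deposited table. In E4 Tet3 was raised at 1.43 ± 0.12, Tet2 at 1.25 ± 0.15 and Dnmt3a, a methyltransferase gene, at 0.93 ± 0.10, while the maintenance methyltransferase gene Dnmt1 was lower, with -0.47 ± 0.13, in the authors' deposited table. Bdnf and Fgf1, which carry the regions linked to Gadd45b, went opposite ways. Bdnf, a neurotrophin gene, was raised at 2.62 ± 0.12 in E1 and 0.43 ± 0.12 in E4, in the authors' deposited tables. The growth factor gene Fgf1 was lowered at -0.58 ± 0.16 in E1 (adjusted p = 0.00146, DESeq2) and -0.35 ± 0.12 in E4 (adjusted p = 0.0128, DESeq2), in the authors' deposited tables, which count a gene as a whole and not its separate starts.

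Known p53 targets, the class to which Gadd45a belongs, did not move as 1 group. In E1 8 of 23 (34.8%) were higher and 4 (17.4%) lower, with a median of 0.10, against 20.6% and 15.0% of all genes tested. In E4 3 of 21 (14.3%) were higher and 7 (33.3%) lower, with a median of -0.14, against 20.7% and 18.3%. The members with the smallest adjusted p in E1 were raised, with Plk2 at 3.35 ± 0.10, the death receptor gene Tnfrsf10b at 4.61 ± 0.30, the antiproliferative gene Btg2 at 2.14 ± 0.18 and Cdkn1a, in the authors' deposited table. In E4 Plk2 stood at 1.02 ± 0.12, Plk3 at 1.23 ± 0.29 and Rrm2b, a ribonucleotide reductase subunit gene, at -0.85 ± 0.12, in the authors' deposited table. Whether p53 took part in any of these changes was not tested.

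The other growth arrest and stress genes were 4 of 10 higher and none lower in E1 (median 0.43), and 3 of 10 higher and none lower in E4 (median 0.04). Of all genes tested 20.6% were higher and 15.0% lower in E1, and 20.7% and 18.3% in E4. With only 10 tested genes in the list, whether its share of rises differs from that of all genes was not tested. Called in either direction were 35.5% and 39.0% of all genes tested, and the share of this list called in either direction was near or below that. Ppp1r15a (Gadd34), a phosphatase subunit of the stress response, stood at 0.74 ± 0.21 (adjusted p = 0.00163, DESeq2) in E1 and 0.11 in E4, where it was not called, in the authors' deposited tables. Ddit3 (Gadd153), a stress-induced bZIP factor, stood at 0.64 ± 0.25 (adjusted p = 0.0325, DESeq2) in E1 and -0.20 in E4, where it was not called, in the authors' deposited tables. Both are far below Gadd45b in size. Larger values belonged to Atf3, a repressor of the ATF family, at 5.91 ± 0.26 in E1 and 2.20 ± 0.30 in E4, and to Cebpb at 1.99 ± 0.14 in E4, in the authors' deposited tables. Atf4, the central factor of that response, stood at 0.91 ± 0.14 and 0.63 ± 0.10 in the authors' deposited tables.

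Of 16 transcription factors reported to act on Gadd45 genes 9 (56.2%) were higher and 2 (12.5%) lower in E1, with a median of 0.48, against 20.6% and 15.0% of all genes tested. In E4 7 (43.8%) were higher and 1 (6.25%) lower, with a median of 0.29, against 20.7% and 18.3%. Egr1 stood at 3.72 ± 0.16, Npas4 at 2.98 ± 0.32 and Myc at 1.51 ± 0.30 in E1, in the authors' deposited table. In E4 Smad3, a mediator of TGF-beta and activin signals, was raised at 1.34 ± 0.11, Creb1 at 0.86 ± 0.11 and Egr1 at 0.71 ± 0.12, and Foxo1 was lower, with -1.53 ± 0.10, in the authors' deposited table. Trp53, the gene of p53 itself, stood at -0.66 ± 0.22 in E1 (adjusted p = 0.00838, DESeq2) and 0.17 in E4 in the authors' deposited tables, the latter not called.

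**Figure D5:**
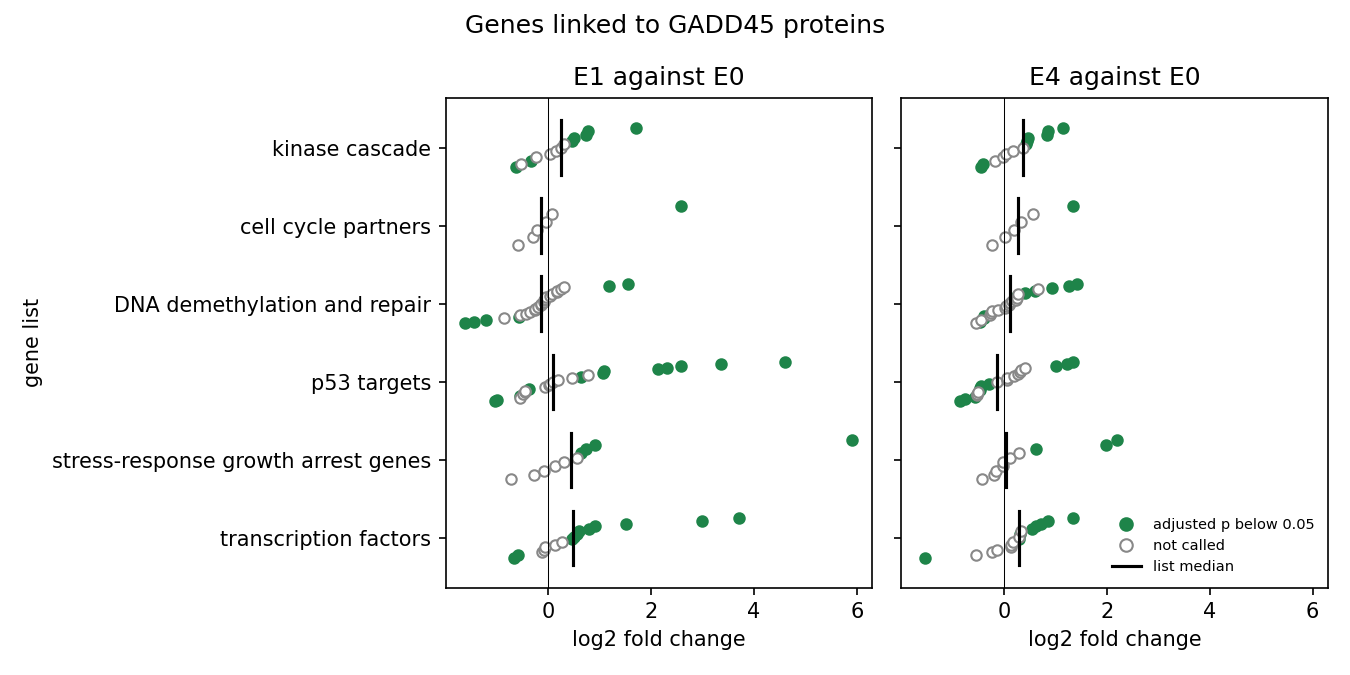
Log2 fold changes (x axis) of the tested members of 6 gene lists (y axis) in E1 and in E4 against E0, with filled points for an adjusted p below 0.05, open points for genes not called and a black bar at the list median. Cdkn1a is the only called cell cycle partner in both panels, and the p53 targets have 8 higher and 4 lower calls in E1 but 3 and 7 in E4.

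Several of 9 lists of cell type markers moved in E1 beside the Gadd45 genes, where 35.5% of all genes tested were called. All 6 granule neuron markers were lower in E1, with a summed implied normalised count of 7852 in E0 and 3930 in E1. Interneuron markers were higher in 4 of 6 cases and not called in 2, with sums of 2567 and 4328. Astrocyte markers were lower in 3 of 4 cases, with sums of 9118 and 6105, and endothelial markers higher in 2 of 3, with sums of 165.7 and 343.6. The other lists were mixed or little called in E1. Of 4 oligodendrocyte markers 1 was higher and 1 lower (sums of 4628 and 5108), as were 1 and 1 of 4 markers of CA pyramidal neurons (880.8 and 1181). Of 4 microglia markers 1 was lower (1270 and 953.2), as was 1 of 2 tested choroid plexus markers (203.3 and 117.4), and none of 3 mossy cell markers was called (404.9 and 416.7). None of the 9 lists had a member at 0. In E4, where 39.0% of all genes were called, granule neuron markers were 2 higher and 4 lower with sums of 14870 in E0 and 11820 in E4, interneuron markers 1 higher of 6 with sums of 4816 and 5345, and no astrocyte or endothelial marker was called. Markers of CA pyramidal neurons were 1 higher and 2 lower of 4 in E4, microglia markers 1 lower of 4, and no oligodendrocyte, mossy cell or choroid plexus marker was called. In bulk tissue fewer cells of a type and less RNA per cell cannot be told apart, and the part of these shifts in the Gadd45 values was not tested.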

How the data were processed

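RNA of the dentate gyrus was sequenced from 9 mice, 3 each in E0, E1 and E4, grouped by the sample titles. TopHat2, DESeq2 and the build mm9 are named in the submitters' processing notes, without versions. How reads were counted, on which annotation and strand setting, and which model was fitted is not given in the sources used here. Both deposited tables hold the authors' own comparisons and no value per library, so no count test was run. The files do not name the reference group, which was taken as E0 because 3 libraries with the same relative depths appear in both.

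The signal column is the mean of counts divided by size factors over the libraries, per the file headers, and each of the authors' tables has its own scale. The log2 fold changes and their SEs are the authors' estimates, per the file headers, and appear shrunken, since the median absolute log2 fold change where the mean count was below 1 came to only 0.142 in E1 and 0.106 in E4. The deposited score equals the log2 fold change over its SE. The deposited adjusted p-value equals a Benjamini-Hochberg value over 15660 and 14455 genes, and a missing one was kept missing. Called means an adjusted p below 0.05. Symbols that a spreadsheet had turned into dates (27 in the E1 table) were left out of joins.

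For E4 against E1 both log2 fold changes were subtracted, and the difference over its combined SE (squares added) was given a two-sided normal p, adjusted over the 12766 genes whose mean count reached 10 in both tables. This test treats both errors as independent although both comparisons share E0. Intervals of a fold change are 95% normal intervals from the SE. Implied group means, size factors and approximate reads were computed from the mean counts and fold changes. Intervals and reads cover what the authors' SE and counting cover. The SE is the error of the authors' estimate, and the parts of it due to mice and to few reads were not separated. Lengths are unions of GENCODE M21 exons, and gene IDs of the members are ENSMUSG00000036390.8 for Gadd45a, ENSMUSG00000015312.9 for Gadd45b and ENSMUSG00000021453.2 for Gadd45g. All 3 members matched a RefSeq window by symbol, of which the 250 bases before the start were searched.

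Members and lists were chosen with earlier results of these data known. Named genes are the members, the 5 genes nearest to each (numbered Gm and LOC symbols and Rik symbols left out), up to 4 called genes of each of 7 lists per comparison by adjusted p, and 8 further genes (Cdkn1a, Pcna, Map3k4, Bdnf, Fgf1, Ppp1r15a, Ddit3 and Egr1). Prox1, Calb1, C1ql2, Gadd45gip1, Trp53, Cdk1, Ccnb1, Mapk13, Tdg, Neil3, Apobec2 and E230016M11Rik were named outside this rule after their values were seen. Other listed genes are given by counts only. Scripts used Python 3.11.15, pandas 2.3.3, numpy 2.4.6 and scipy 1.17.1.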

Additional observations from a re-analysis of the deposited data

Results flagged for a closer look

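For these genes the response in E4 differed from that in E1 in the test of the difference of both log2 fold changes. Of 51 named genes 50 could be tested and 37 passed an adjusted p of 0.05, of which 8 were higher in E4 and 29 lower, where 36.7% of all genes tested passed. Most of these genes were named for their values in the same 2 comparisons. Their share and direction therefore cannot be read against those of all genes. Values are E4 minus E1 on the log2 scale with the SE. Among the members it was -1.02 ± 0.28 for Gadd45b and -1.04 ± 0.23 for Gadd45g. Genes near Gadd45b gave -1.39 ± 0.34 for Inhba, -1.69 ± 0.29 for Cenpa, -1.71 ± 0.22 for Nptx2, -0.97 ± 0.30 for Rara and -1.59 ± 0.43 for Pim1. Those near Gadd45g gave -1.08 ± 0.21 for Jund, -1.04 ± 0.19 for Ifrd1 and -0.80 ± 0.21 for Plagl1, and Setdb1, near Gadd45a, gave 0.49 ± 0.19.

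Lower in E4 among p53 targets and stress genes were -1.26 ± 0.32 for Cdkn1a, -2.34 ± 0.15 for Plk2, -1.08 ± 0.43 for Plk3, -1.80 ± 0.24 for Btg2, -4.30 ± 0.49 for Tnfrsf10b, -0.86 ± 0.21 for Rrm2b, -3.71 ± 0.40 for Atf3, -0.84 ± 0.30 for Ddit3 and -0.63 ± 0.26 for Ppp1r15a. In the kinase cascade the values were -0.43 ± 0.14 for Map2k4, -0.45 ± 0.15 for Mapk9, -0.35 ± 0.13 for Mapk10 and -1.53 ± 0.38 for Mapk11, and higher in E4 stood Mapkapk2 at 0.85 ± 0.21. Transcription factors and Bdnf gave -3.00 ± 0.20 for Egr1, -2.66 ± 0.44 for Npas4, -2.05 ± 0.42 for Myc, -1.45 ± 0.16 for Foxo1 and -2.19 ± 0.17 for Bdnf, and higher in E4 stood Smad3 at 1.93 ± 0.17 and the stress gene Cebpb at 1.43 ± 0.28. Also higher were Trp53 at 0.83 ± 0.26 and Gadd45gip1 at 0.91 ± 0.31, which are not among the 51 genes. Of 20 tested genes of DNA demethylation, methylation and repair 7 were higher in E4, 1 was lower and 12 were not called. Of all genes tested 17.7% were higher and 19.0% lower. The named ones called higher were Tet3 at 1.18 ± 0.21, Dnmt3a at 1.08 ± 0.17, Apex1 at 1.72 ± 0.40 and Xpc at 1.23 ± 0.30, and the lower one was Mbd4 at -1.66 ± 0.31. No explanation of these differences was tested.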

How the results depend on the processing

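For the 8 tested member results, all 33 alternatives left the direction and the call as they were. These alternatives changed the genes over which p was adjusted, lowered the threshold to 0.01, subtracted the median log2 fold change (-0.006 in E1 and -0.003 in E4) or, for E4 against E1, assumed errors correlated at 0.5. The adjusted p of Gadd45b for E4 against E1 ranged from 1.5e-06 to 0.00162 over these, and that of Gadd45g from 1.0e-09 to 4.6e-05. Counts of all genes called stayed within 1.5 times under each alternative. Of the 5 genes nearest to Gadd45g 3 were kept with a mean count of at least 10. With a threshold of 0.01, 5 list counts moved by over 1.5 times, all of lowered genes, among them p53 targets in E4, with 4 in place of 7, and Fgf1, which was no longer called in E4. Leaving out each mouse, other size factors and count models were not run, since the tables hold no value per library. No paired analysis was possible because the tables hold comparisons only and carry no replicate numbers. Depth limits Gadd45a, with about 11 reads over the E1 libraries.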
